A study of Mus musculus with 4 samples.

Results

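Ctnna3, Sox5, Baiap2l2, Rab7b, Colec12, Fam20c, Etl4, Bcar3, Ank and Cox6a2 are 10 genes that are seldom named in accounts of microglia. They were picked by symbol, out of the 32285 genes in the count matrices, because earlier work on these same cells had shown higher levels in disease-associated microglia (DAM) of the thalamus. All 10 were present in every matrix. Their difference between the regions, and between DAM and homeostatic microglia, was therefore part of the choice and is given as a description with no test. How the excess divides between more DAM and more RNA per DAM is built on the same regional difference, and is likewise a description. What had not been used was how the genes behave in cells outside the microglia, and between DAM that are rich and poor in nuclear RNA.

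Microglia are the resident macrophages of the brain. Near dying neurons and myelin debris they lower homeostatic genes such as P2ry12 and Tmem119 and take on the DAM state, in which genes of lipid handling, lysosomes and phagocytosis are switched on. The 10 genes have unlike roles in other tissues: adhesion and signalling scaffolds (Ctnna3, Bcar3, Etl4), membrane shape and endosomal traffic (Baiap2l2, Rab7b), uptake at the surface (Colec12), mineral and phosphate biology (Fam20c, Ank), respiration (Cox6a2) and transcription (Sox5).

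The cells came from C57B6/J mice with a cortical brain injury. Live CD45 positive cells, a sort that takes microglia and other leukocytes, were obtained separately from thalamic tissue and from hippocampus (HPC) of the injured hemisphere. The study's methods state that each region's suspension combined 4 mice. All mice carried the injury, so no uninjured group enters any comparison, and their age and the time since injury were not in the labels. Each region was sequenced as 1 droplet library (3′ single-cell RNA sequencing) and held 4 sets of cells told apart by a multiplexing tag. Region and library cannot be told apart. The labels do not tie a set to 1 mouse, so every SD and p-value below measures the spread between sets, which may be technical.

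After filtering, 24939 of 29190 cells remained, with medians of 4261.5 to 4657 UMIs per cell in the 8 sets (a UMI is 1 molecule counted once). Marker genes that include none of the 10 placed 19751 cells as microglia-like. A score of DAM markers minus homeostatic markers then split them into 4 states: DAM-gated, intermediate, homeostatic-gated and interferon-gated. DAM-gated cells were 24.7% ± 8.09 (SD, n = 4) of microglia-like cells in the thalamus and 4.0% ± 2.98 in the HPC. They numbered 879, 404, 331 and 611 in thalamus sets 1 to 4, and 304, 89, 34 and 67 in HPC sets 1 to 4. Between homeostatic-gated and DAM-gated thalamic cells P2ry12 went from 21.9 to 4.15 UMIs per 10,000 and Cst7 from 0.328 to 12.3. Both are genes of the gate, so this is no independent check of it. The macrophage marker Lyve1 was not seen in either state, and Cd163 was seen in 0.0449% of thalamic DAM-gated cells. Both markers were also used to class cells as macrophage- or monocyte-like. The DAM-gated cells of the regions were not equally far along the score, with set medians averaging 0.241 ± 0.0975 in the thalamus and -0.0107 ± 0.0727 in the HPC. HPC set 1 stood apart from the other HPC sets, with 58.2% of its microglia-like cells intermediate. The regions shared 65 cell barcodes, and no barcode occurred in more than 1 set of a region.

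Cox6a2 needs a word on identity, since a mix-up with its ubiquitous paralog Cox6a1 would give a level in every cell. The last 60 coding bases that align without a gap are shown for both (GENCODE transcripts, GRCm38, mRNA sense, 5′ to 3′), with the 20 differing bases in capitals.
Cox6a2: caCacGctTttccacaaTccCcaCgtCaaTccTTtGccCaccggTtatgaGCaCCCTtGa
Cox6a1: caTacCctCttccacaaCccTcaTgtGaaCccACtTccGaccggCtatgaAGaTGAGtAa
Over the whole reading frame the paralogs were 64.8% identical and shared no run longer than 12 bases. The corresponding longest shared runs were 7 bases for Rab7b and Rab7, 15 for Baiap2l2 and Baiap2, and 37 for Ctnna3 and Ctnna1. Reads of a 3′ library fall mostly outside the coding part, which was not compared. The genes differ widely in size. Ctnna3 spans 1574 kb at chr10:63430098-65003667 of GRCm38 on the plus strand, and 99.5% of that span is intronic. Sox5 covers 954 kb at chr6:143828425-144781977 and Etl4 901 kb at chr2:19909780-20810713. At the other end, Cox6a2 covers 0.953 kb at chr7:128205435-128206387 on the minus strand. Whether reads from introns were counted is not given in the sources used here. Sox5, Colec12, Etl4, Bcar3 and Ank each overlap between 2 and 4 annotated genes of their own strand, so their counts are uncertain by what those genes took or gave.

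Among the homeostatic-gated, intermediate and DAM-gated states, all 10 genes were highest in DAM-gated cells in 4 of 4 thalamus sets. Mean levels were between 8.66 times (Ank) and 274 times (Colec12) those of homeostatic-gated cells. The ratio of Colec12 rests on 6 UMIs in thalamic homeostatic-gated cells. In the HPC the same order of states held in 4 of 4 sets for 7 genes, in 3 sets for Ctnna3 and Sox5, and in 2 sets for Baiap2l2. The levels that follow are UMIs per 10,000 in DAM-gated cells, for sets 1 to 4 in that order.

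Ctnna3 encodes αT-catenin, which joins cadherin adhesion complexes to actin and is best known from heart muscle. It stood at 2.33, 0.745, 1.60 and 0.866 in the thalamus and at 0.0361, 0.0203, 2.68 and 0 in the HPC. A single HPC set, set 3, was as high as the thalamus, and its 47 UMIs all came from 1 of its 34 cells. With that set the mean was 1.38 ± 0.733 against 0.683 ± 1.33 (SD, n = 4), a ratio of 2.03. Without it the ratio of means was 73.6, resting on 7 HPC UMIs. Over pooled counts without set 3 the ratio was 54.9, with a 95% counting interval of 26.6 to 137.

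Sox5, a transcription factor of cartilage and neuron development, stood at 0.112, 0.118, 0.286 and 0.272 in thalamic DAM-gated cells. In the HPC it stood at 0.0241, 0, 0.0569 and 0.0256, where the count of 0 in set 2 allows up to 0.0609. The regions did not overlap. The means were 0.197 ± 0.0948 and 0.0266 ± 0.0233, and the HPC value rests on 6 UMIs.

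Baiap2l2 belongs to the I-BAR proteins, which bend the plasma membrane outward, and it is known from the stereocilia of hair cells. Its levels were 0.335, 0.186, 0.606 and 0.275 in the thalamus against 0.0120, 0.0203, 0 and 0 in the HPC, where the counts of 0 in sets 3 and 4 allow up to 0.171 and 0.0768. Every thalamus set lay above every HPC set. Pooled over sets, 387 thalamic UMIs stood against 3 in the HPC, a ratio of 29.9 with a counting interval of 10.2 to 146. This and the other intervals cover counting error only.

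Rab7b is a small GTPase of transport between endosomes and the Golgi. It was even across thalamus sets, at 0.863, 0.873, 0.857 and 0.968, and lower in each HPC set, at 0.499, 0.811, 0.569 and 0.768. The sets did not overlap, yet the step was small, from 0.662 ± 0.151 to 0.890 ± 0.0524 (1.34 times).

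Colec12, a collectin and scavenger receptor that binds sugars and oxidised lipoprotein, was at 0.689, 1.87, 1.63 and 1.62 in the thalamus and at 0.692, 0.974, 0.342 and 1.51 in the HPC. Thalamus set 1 fell among the HPC sets. The means were 1.45 ± 0.521 and 0.879 ± 0.494.

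Fam20c, the Golgi kinase that phosphorylates secreted proteins, osteopontin among them, differed least. It stood at 1.23, 1.13, 1.53 and 1.44 in the thalamus and at 0.884, 1.38, 1.25 and 0.998 in the HPC. The sets overlapped, and the means of 1.33 ± 0.185 and 1.13 ± 0.227 were 1.18 times apart.

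Ank, a membrane protein through which cells release ATP and pyrophosphate, was at 3.38, 2.54, 6.07 and 3.85 in the thalamus and at 1.16, 1.44, 3.59 and 0.717 in the HPC. HPC set 3 reached into the thalamic range. The ratio of means was 2.30, and 3.59 without HPC set 3.

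Etl4, whose protein is needed for the intervertebral discs, was at 1.49, 2.37, 2.45 and 2.64 in the thalamus and at 1.10, 1.85, 1.31 and 1.69 in the HPC. Thalamus set 1 lay within the HPC range and the other 3 thalamus sets above it. Bcar3, an adaptor that binds Cas scaffolds in adhesion and migration, was at 0.709, 0.532, 0.507 and 0.890 against 0.355, 0.264, 0.399 and 0.691. Its sets overlapped as well, since HPC set 4 lay above thalamus sets 2 and 3. The ratios of means were 1.51 for Etl4 and 1.54 for Bcar3.

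Cox6a2 is the subunit of cytochrome c oxidase used in heart and skeletal muscle. Its levels of 1.11, 0.750, 0.903 and 0.989 in the thalamus lay above the 0.355, 0.527, 0.228 and 0.717 of the HPC, with no overlap. Set 2 of the thalamus and set 4 of the HPC were close. Once cells poor in Malat1 (described further on) were left out, the sets overlapped, the lowest thalamus set being 0.552 and the highest HPC set 0.610.

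**Figure D1:**
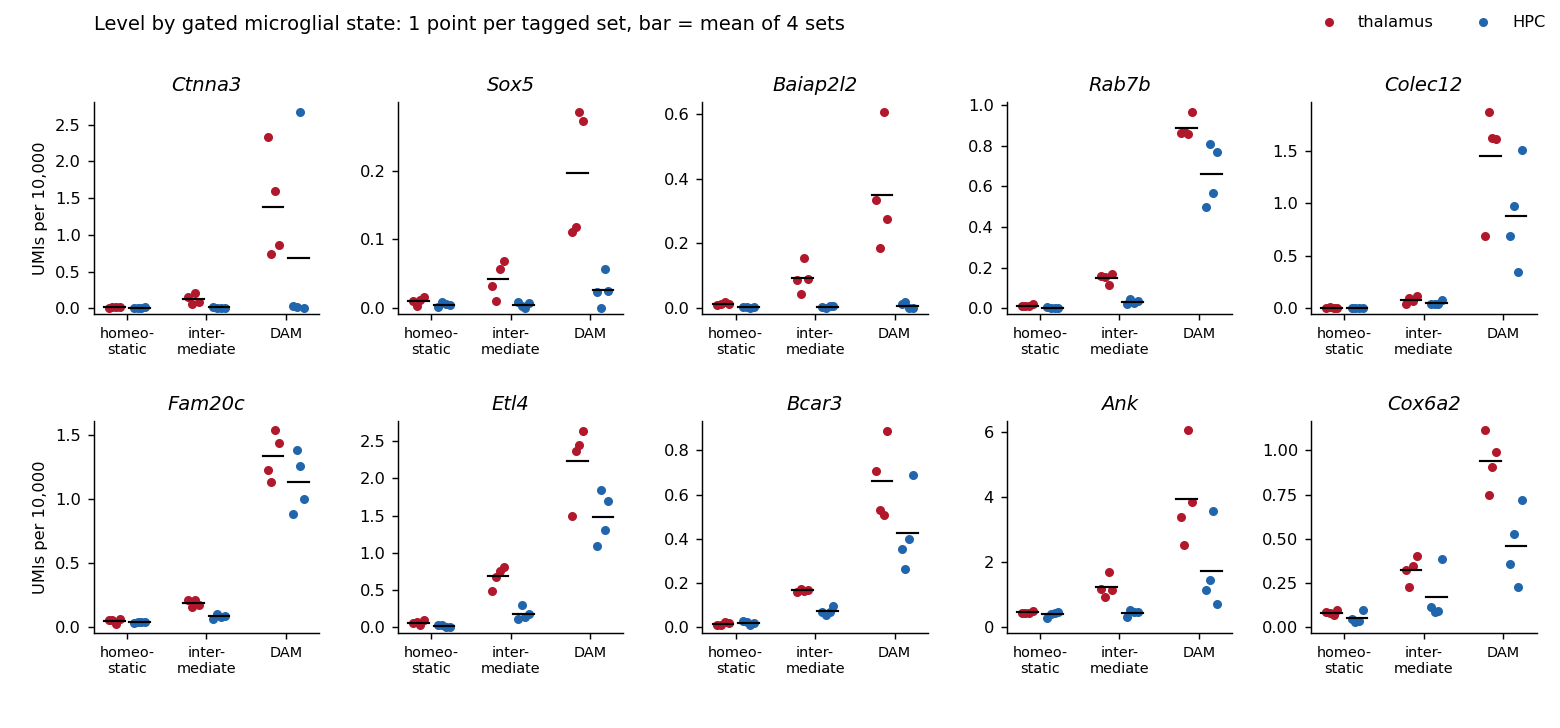
Level of each gene in UMIs per 10,000 (vertical axes, linear, 1 scale per gene) in homeostatic-gated, intermediate and DAM-gated cells, with 1 point per tagged set (red, thalamus, and blue, HPC) and a bar at the mean of 4 sets. All 10 genes are highest at the right in the thalamus, the HPC points of Baiap2l2 and Sox5 stay near 0, and the lone high HPC point of Ctnna3 at 2.68 is set 3.

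In DAM-gated cells, then, 4 of the 10 genes (Sox5, Baiap2l2, Rab7b and Cox6a2) had every thalamus set above every HPC set. Of 13788 genes with enough UMIs, 4.34% did so, and nothing is read from the comparison because this contrast chose the genes. In homeostatic-gated cells Baiap2l2, Rab7b and Etl4 did so, beside 4.85% of all genes. For Baiap2l2 this rests on 19 thalamic and 9 HPC UMIs, and for Rab7b on 18 and 7. Baiap2l2 averaged 0.0138 ± 0.00352 there in the thalamus and 0.00303 ± 0.00162 in the HPC, and Etl4 0.0620 ± 0.0268 and 0.0165 ± 0.0101. Pooled over thalamic homeostatic-gated cells, Baiap2l2 was at 0.0143 and Rab7b at 0.0136. In thalamic T- or NK-like cells they were at 0.00901 and 0.0144. The part of RNA from other cells in these levels was not tested. Bcar3 was not higher in thalamic homeostatic-gated cells, at 0.0159 ± 0.00654 against 0.0191 ± 0.00705. In the intermediate state 8 genes had non-overlapping sets, all but Colec12 and Cox6a2, beside 3.69% of all genes, with Ank at 1.24 ± 0.322 in the thalamus and 0.448 ± 0.0994 in the HPC. In interferon-gated cells, of which HPC sets held 29 to 81, Etl4 was at 1.15 ± 0.155 against 0.105 ± 0.0778 and Ank at 1.77 ± 0.529 against 0.222 ± 0.135. Interferon-gated cells were taken out before the DAM score was applied, and the thalamic ones were more DAM-like. Over pooled cells Cst7 was at 7.16 in the thalamus and 0.798 in the HPC, and P2ry12 at 9.16 and 13.9. The part of this in the differences within the interferon-gated state was not tested. Sox5 was higher in interferon-gated than in DAM-gated cells in thalamus sets 1 and 4, at 0.223 and 0.381. Over all microglia-like cells the sets of the regions did not overlap for any of the 10 genes, beside 7.75% of all genes.

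The difference over all microglia-like cells was next divided into a part from state shares (the thalamus holds more of its UMIs in DAM) and a part within states (a cell of a given state holds more of the gene), averaged over the 16 pairs of a thalamus and an HPC set. Over the 10 genes the median part within states was 43.2%. For Baiap2l2 it was 69.5% of a difference of 0.129 UMIs per 10,000, for Sox5 65.3% of 0.0692 and for Ank 55.1% of 1.23. For these 3 genes the greater part of the excess thus lay within states. Cox6a2 (49.3%), Etl4 (43.9%), Ctnna3 (42.5%), Bcar3 (36.9%) and Rab7b (33.8%) were in between. Colec12 at 26.7% and Fam20c at 23.4% differed mostly by state shares, and for Colec12 the part within states ran from -16.9% to 37.3% depending on the thalamus set. Ctnna3 moved to 63.7% without HPC set 3.

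States are coarse, and thalamic cells sat higher on the score within the DAM gate. With 20 equal bins of the score in place of 4 states the median part within bins fell to 32.0%. It was 65.4% for Baiap2l2 and 59.9% for Sox5. For Ank it was 48.7%, so that the greater part no longer lay within bins, as was also so with 4 states without HPC set 1 (46.8%). It went to 8.80% for Colec12, 8.28% for Fam20c and 20.8% for Ctnna3. Without HPC set 1 the median over the 10 genes, with 4 states, was 34.2%.

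**Figure D2:**
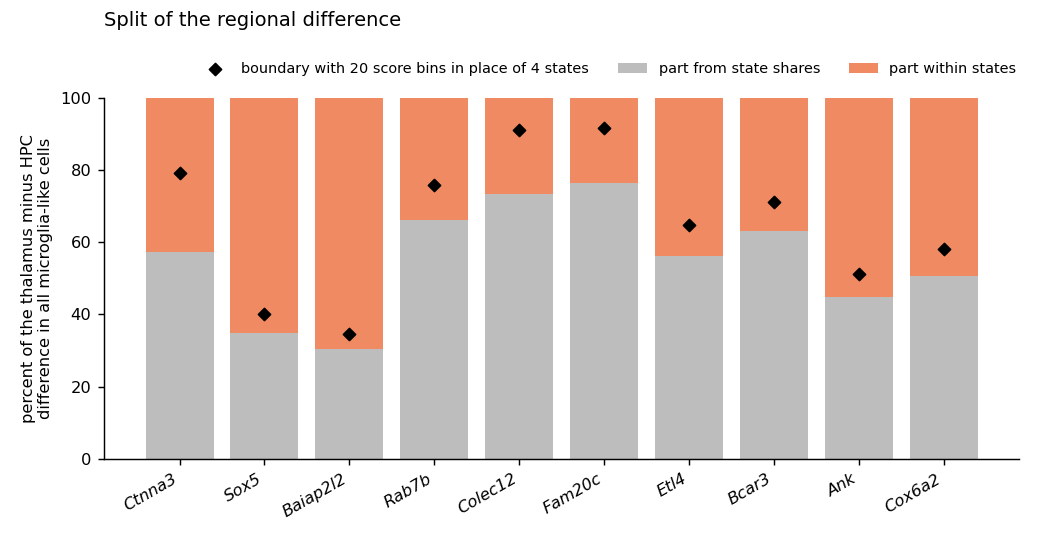
Split of the thalamus minus HPC difference over all microglia-like cells, in percent of that difference (vertical axis), for each of the 10 genes, with the part from state shares in grey and the part within states in orange. Diamonds mark where the boundary falls with 20 score bins, and Baiap2l2 (69.5%) and Fam20c (23.4%) have the greatest and least part within states.

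Along the score the genes parted in 2 ways. Fam20c in the top decile of all microglia-like cells was at 1.66 in the thalamus and 1.72 in the HPC, and Rab7b at 1.08 and 0.964. Bcar3 and Etl4 also came close at the top of the score, at 0.756 against 0.554 and 2.37 against 1.82. One decile below, Etl4 was at 1.93 against 0.896 and Rab7b at 0.496 against 0.190. By contrast Baiap2l2 in the top decile was at 0.377 against 0.0185 and Sox5 at 0.222 against 0.0371, with no overlap of sets in either gene. Ank was at 4.29 against 2.16 in the top decile, where the sets overlapped, and at 2.95 against 0.779 in the decile below, where they did not. The HPC sets of Ank in the top decile ran from 1.07 to 4.67. Over pooled cells of that decile Ank was at 3.96 in the thalamus and 1.49 in the HPC. Ctnna3 was at 1.54 against 1.18 in the top decile, where the sets overlapped, and at 0.803 against 0.0242 in the ninth. In the top decile most of the HPC mean came from its highest set, at 4.67, the lowest being 0. Over pooled cells of that decile Ctnna3 was at 1.74 in the thalamus and 0.357 in the HPC.

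**Figure D3:**
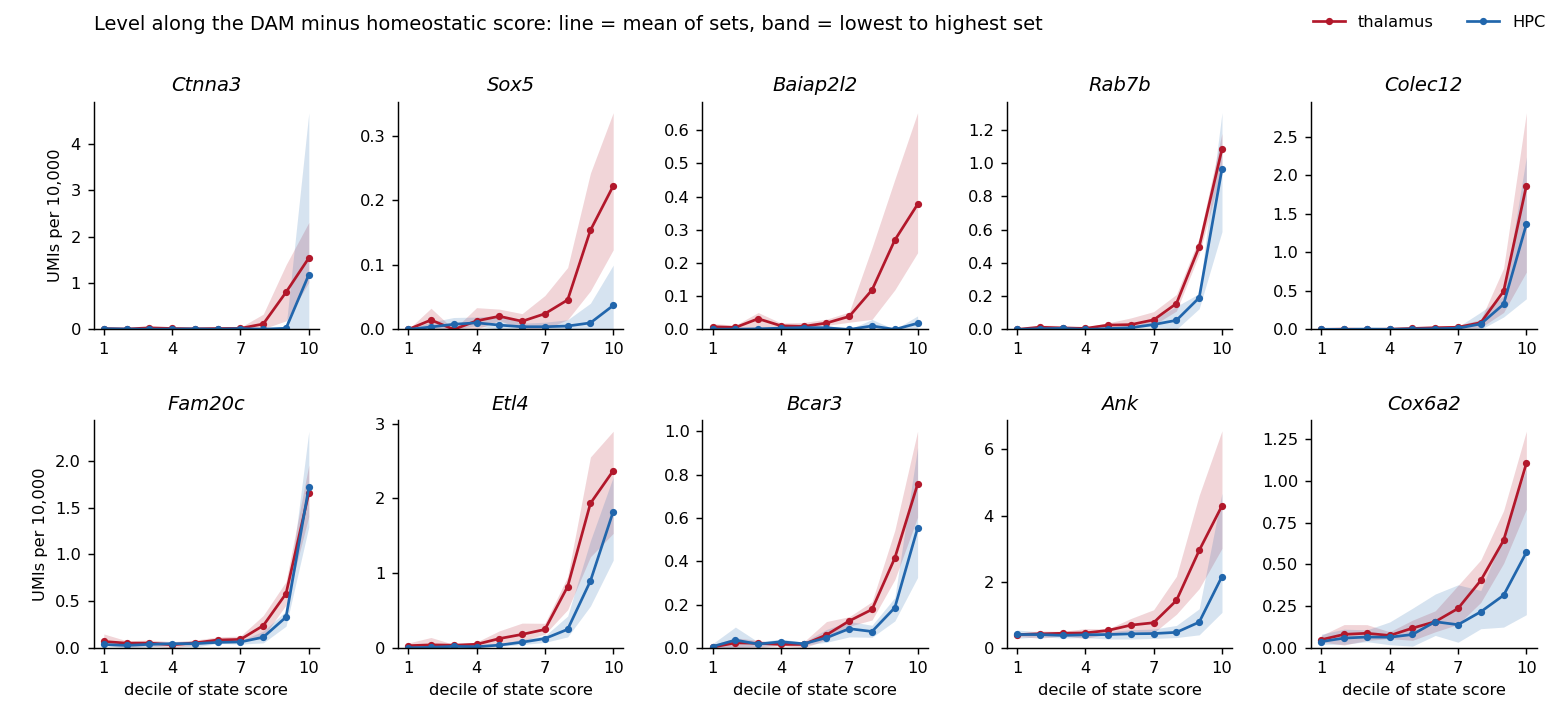
Level of each gene in UMIs per 10,000 (vertical axes) in deciles of the DAM minus homeostatic score, decile 10 being the most DAM-like (horizontal axes), with the mean of sets as a line and the lowest to highest set as a band (red, thalamus, and blue, HPC). The lines of Fam20c meet in decile 10 at 1.66 and 1.72, while those of Baiap2l2 end at 0.377 and 0.0185.

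The genes also differed in how their UMIs were spread over cells. Ctnna3 was found in few cells, with many copies each: among 2225 thalamic DAM-gated cells, 108 held all of its 1772 UMIs, a mean of 16.4 per positive cell and a maximum of 121. These cells were found in every thalamus set, 40, 15, 20 and 33 of them. Colec12 was next, with 1541 UMIs in 328 cells and a maximum of 59, followed by Ank with 4404 UMIs in 994 cells and a maximum of 53. Rab7b, Baiap2l2 and Cox6a2 were spread thinly, at 1.73, 1.48 and 1.68 UMIs per positive cell. In the HPC, 4 of 494 DAM-gated cells held Ctnna3 and 3 each held Sox5 and Baiap2l2.

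Shares of positive cells were compared after thinning each cell to 1743 UMIs, which left 2000 thalamic and 448 HPC DAM-gated cells and dropped 225 and 46 shallower ones. Ank was found in 29.5% ± 9.15 of thalamic cells and 14.9% ± 7.60 of HPC cells (SD, n = 4), and unthinned in 45.4% and 30.2%. Cox6a2 was found in 16.2% ± 3.51 and 6.29% ± 2.75, and unthinned in 29.6% and 19.4%. Baiap2l2 was found in 5.10% ± 2.77 of thalamic cells and in 0 of 448 HPC cells, which allows a share of up to 0.670% with a UMI at that depth (unthinned, 3 of 494 cells held one). Fam20c, by contrast, overlapped between regions, at 16.6% ± 3.55 and 11.9% ± 5.12, as did Rab7b at 11.5% ± 1.33 and 8.84% ± 2.45. As background, T- or NK-like cells, whose median depth was 3388 UMIs in the thalamus and 3948 in the HPC before thinning, held 9 of the 10 genes in at most 0.462% of cells. Ank was the exception with 8.15% ± 1.39 and 9.28% ± 1.55. A thalamic DAM-gated cell held on average 1.18 of the 10 genes at that depth and an HPC one 0.641, while homeostatic-gated cells held 0.110 and 0.0777.

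Pairs of genes were looked at within thalamic DAM-gated cells that were not poor in Malat1 (1402 cells at equal depth), as a description. Ctnna3 and Sox5 were found together in 12 cells, where independent genes would give 1.97. Baiap2l2 shared 12 cells with Ctnna3 (3.42 if independent) and 7 with Sox5 (1.48). Colec12 went the other way and shared 0 cells with Sox5 (4.48 if independent). Bcar3 and Baiap2l2 met in 1 cell (5.25 if independent). The cells shared a library and 1 state, and the counts are small.

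Outside the microglia most of the genes were close to 0. Sox5 and Bcar3 were present in B- or plasma-like cells, classes gated on neither gene, at 1.57 and 1.63 UMIs per 10,000 in 60 HPC cells and 0.929 and 1.51 in 17 thalamic cells. Of the 60 HPC cells 57 were of set 1. The thalamic values rest on 8 Sox5 UMIs in 2 cells of set 2 and 13 Bcar3 UMIs in 3 cells of set 1, and either is 0 without that set. Macrophage- or monocyte-like cells (95 HPC, 103 thalamic) carried Rab7b at 0.470 and 0.580, Colec12 at 0.299 and 0.396, Fam20c at 0.341 and 0.325 and Ank at 0.455 and 0.396, in HPC and thalamus. Of the 28 thalamic Colec12 UMIs 23 were in set 4, 17 of them in 1 cell, and without that set the level was 0.0913. Ctnna3 and Baiap2l2 had no UMI in these cells. In neutrophil-like cells Fam20c was at 0.193 in the HPC and 0.331 in the thalamus, and Rab7b at 0.0700 and 0.189. Ctnna3 was at 0.149 and 0.0631 there, from 17 UMIs in 8 HPC cells and 4 UMIs in 4 thalamic cells. Its HPC sets were uneven, with a mean of 0.0435, the highest set at 0.174 and the lowest at 0. Dendritic-like cells (33 HPC, 46 thalamic) carried Rab7b at 0.171 and 0.315 and Ank at 0.469 and 0.504. No regional test was made in these classes. For macrophage- or monocyte-like cells 1 HPC set alone had the 20 cells required, and none was planned for the others.

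T- or NK-like cells gave a regional comparison that had not been used to choose the genes. Ank, the 1 member with enough counts there, was at 0.539, 0.557, 0.621 and 0.398 in thalamus sets 1 to 4 and at 0.459, 0.570, 0.538 and 0.652 in the HPC. The sets overlapped fully. In edgeR's quasi-likelihood test over 8937 genes, with Benjamini-Hochberg adjustment, its log2 fold change was -0.09 (SE 0.18, adjusted p = 1.00). It was not called, beside 0.179% of all genes that were (0.134% higher and 0.0448% lower). The other members had too few counts to be tested. In the same test the unadjusted p of Ank was 0.73, where 568 of the 8937 genes were under 0.05. DESeq2 gave no adjusted p for 8490 of the 8937 genes, so its lack of a call is not counted. The difference in Ank between the regions seen in microglia was not detectable in these cells.

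A second comparison that had played no part in the choice runs within thalamic DAM-gated cells. Malat1 is a nuclear RNA, and cells below 40 Malat1 UMIs per 10,000 were set against the rest of the same set. Such Malat1-poor cells made up 41.4%, 25.7%, 33.5% and 30.9% of DAM-gated cells in thalamus sets 1 to 4, and 25.3%, 16.9%, 14.7% and 5.97% in HPC sets. They were shallower, with median depths of 2130 to 2337 UMIs against 6357 to 6725. In a paired fit (edgeR's quasi-likelihood test, Benjamini-Hochberg adjustment, 4 sets) Cox6a2 and Baiap2l2 were called higher in Malat1-poor cells. Etl4, Colec12, Ank and Fam20c were called lower, and Rab7b was not called. Of all 8907 genes tested 72.0% were called (31.0% higher and 41.0% lower). Ctnna3, Sox5 and Bcar3 are not counted here. They had 3, 1 and 14 UMIs in Malat1-poor cells and entered the fit only through the other cells. Most genes passed the test in this comparison, and the members are told apart by direction and size.

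Cox6a2 was higher in Malat1-poor cells in each set, at 2.18, 1.57, 2.66 and 2.14 against 0.805, 0.627, 0.552 and 0.796. The groups did not overlap, and the log2 fold change was 2.46 (SE 0.12, adjusted p = 3.05e-22). Baiap2l2 was the other gene that was higher, at 0.378, 0.349, 0.806 and 0.394 against 0.322, 0.162, 0.566 and 0.255, with a log2 fold change of 1.39 (SE 0.22, adjusted p = 2.49e-07). It was higher in 4 of 4 sets. In the HPC, where no test was made, Cox6a2 was at 0.753, 1.39, 0.905 and 3.63 in Malat1-poor cells, which numbered 77, 15, 5 and 4, against 0.301, 0.460, 0.182 and 0.610.

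Etl4 fell from 1.88, 2.71, 2.91 and 3.07 in other cells to 0.129, 0.105, 0.140 and 0.104 in Malat1-poor cells. No set came near overlap, and the log2 fold change was -3.42 (SE 0.20, adjusted p = 4.81e-20). Ctnna3 had 3 UMIs in Malat1-poor cells against 1769 in the rest, a ratio per UMI of 0.00797 with a counting interval of 0.00164 to 0.0233. Sox5 had 1 against 215, a ratio of 0.0219 (0.000551 to 0.123). Bcar3 had 14 against 806, a ratio of 0.0817 (0.0445 to 0.138), and its fitted log2 fold change was -2.71 (SE 0.31). These are given without a test. Colec12 changed by -1.93 on the log2 scale (SE 0.21), Ank by -0.92 (SE 0.11) and Fam20c by -0.52 (SE 0.17, adjusted p = 0.00505). Rab7b, at -0.13 (SE 0.17, adjusted p = 0.483), was not called.

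The scaling between cells of such unlike content bears on these values. With library totals in place of TMM factors the median of all genes shifted by -0.91, and the split of all calls went from 2763 higher and 3653 lower to 1316 and 5666. The members counted above were all called then, beside 78.4% of all genes, with Rab7b at -1.04. Cox6a2 (1.55) and Baiap2l2 (0.49) stayed on the higher side. Fam20c lost its call without thalamus set 2 (-0.34) or set 4 (-0.39) and with DAM as the top 25% of cells (-0.12).

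The sizes of the falls also depended on where the Malat1 limit was set. With the limit at 80 in place of 40 UMIs per 10,000, the log2 fold change of Etl4 was -1.18, of Bcar3 -1.17, of Colec12 -1.16, of Sox5 -1.28 and of Ctnna3 -1.06. Ank (-0.13) and Fam20c (-0.28) were then not called. Cox6a2 (2.22) and Baiap2l2 (1.45) stayed on the higher side. With the limit at 20 Etl4 was at -3.62 and Ank at -0.89.

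**Figure D4:**
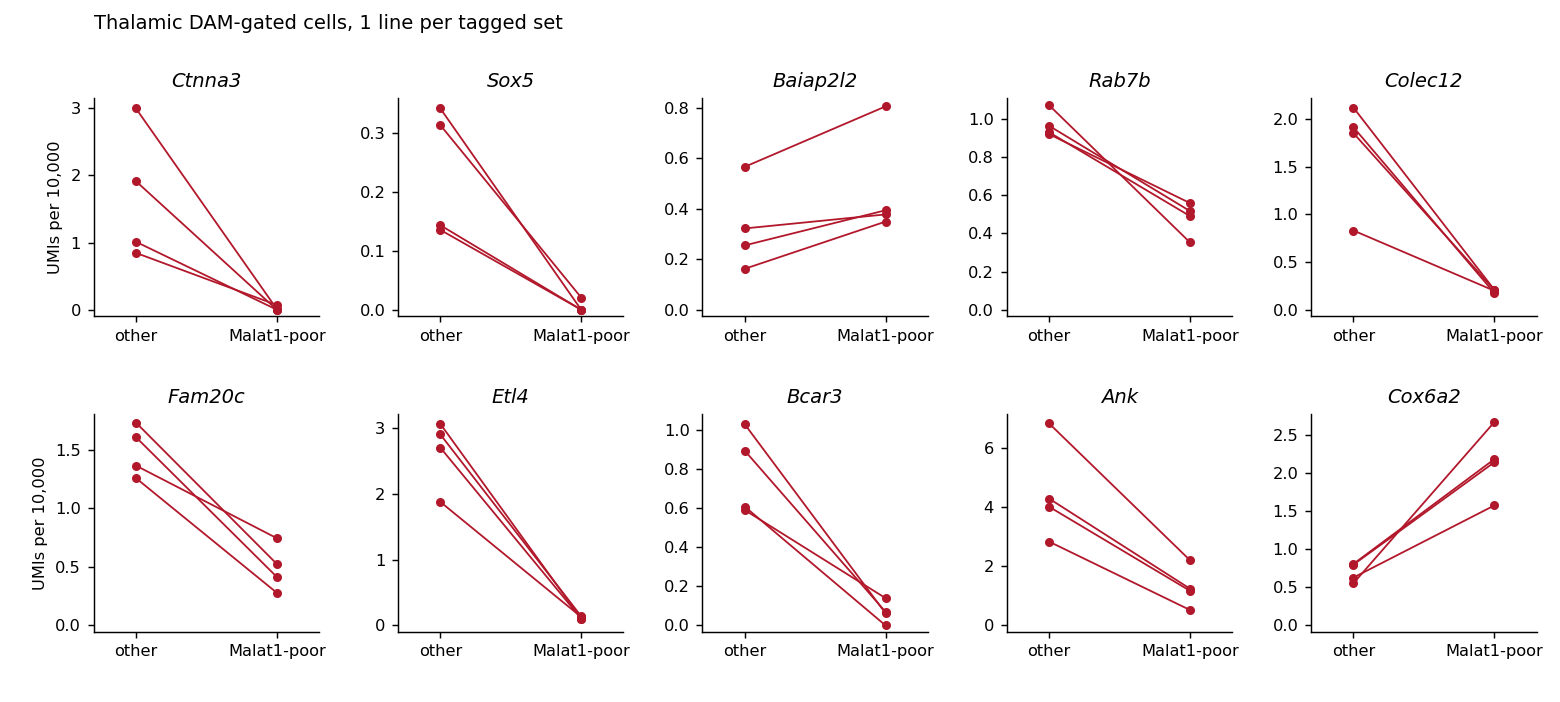
Level of each gene in UMIs per 10,000 (vertical axes) in thalamic DAM-gated cells, other cells on the left and Malat1-poor cells on the right, with 1 line per tagged set. Cox6a2 and Baiap2l2 climb in all 4 sets, Etl4 falls to between 0.104 and 0.140, and Ctnna3 falls to near 0.

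With the limit at 40 the order of the 10 genes in this comparison ran broadly with their length, which it did not among the 5 longest at a limit of 80. Cox6a2 (0.953 kb) and Baiap2l2 (27.3 kb) were higher, Rab7b (26.7 kb) and Fam20c (55.6 kb) were near the median of all genes, and Ank (128 kb), Colec12 (175 kb), Bcar3 (236 kb), Etl4 (901 kb), Sox5 (954 kb) and Ctnna3 (1574 kb) were lower. Over all genes tested the median log2 fold change fell with length, from 1.12 under 10 kb through 0.16 (10 to 30 kb), -0.96 (30 to 100 kb) and -1.94 (100 to 300 kb) to -3.13 over 300 kb. Cox6a2 lay above the 95th percentile of the genes under 10 kb (2.20). Baiap2l2, Ank and Fam20c lay above the median of their length classes. Whether intronic reads take part in this was not tested.

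**Figure D5:**
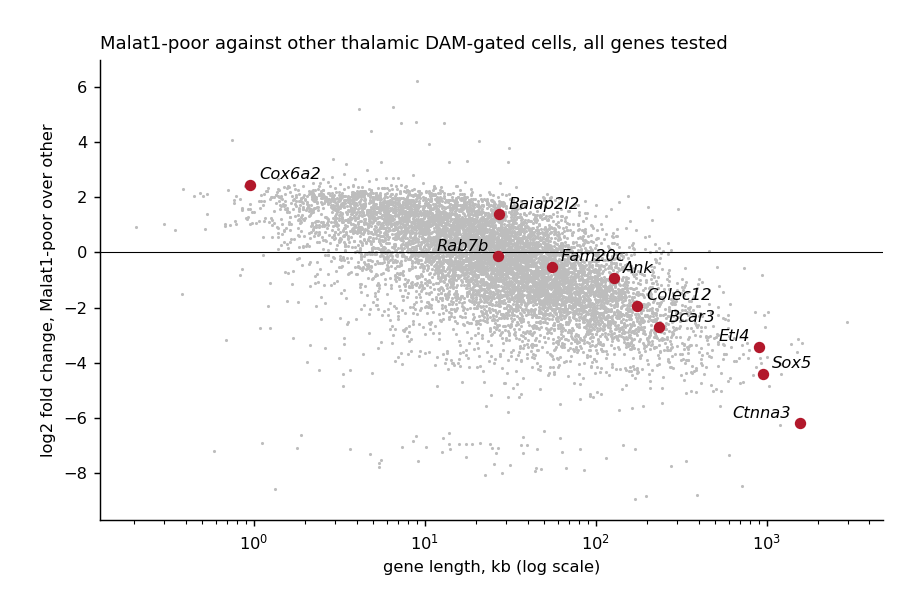
Log2 fold change between Malat1-poor and other thalamic DAM-gated cells (vertical axis) against gene length in kb (horizontal axis, log scale), with all 8907 genes tested in grey and the 10 genes in red. Cox6a2 sits at the short, higher end (2.46) and Ctnna3, whose fitted value of -6.19 rests on 3 UMIs, at the long, lower end.

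Relatives and partners of the 10 genes were tested between regions. Their list was drawn up by gene family with earlier results of these cells known, Spp1 included, so a call on it is not independent support. Of 61 listed genes 41 had enough counts in DAM-gated cells, and 1 was called beside 1.69% of all 9778 genes tested (1.15% higher and 0.542% lower). That gene was Spp1, which encodes osteopontin, a substrate of the Fam20c kinase. It was higher in thalamic cells, with a log2 fold change of 2.15 (SE 0.32, adjusted p = 0.00219 in edgeR's quasi-likelihood test), and between 1.51 and 2.92 over all alternatives. Over pooled cells Spp1 was also higher in the thalamus in homeostatic-gated cells, at 1.72 against 0.0450 UMIs per 10,000, with a UMI in 52.1% against 2.01% of cells, in intermediate cells, at 6.21 against 0.200, and in interferon-gated cells, at 63.7 against 0.242. These pooled levels were not tested between regions, and the part of Spp1 RNA from other cells in them was not tested. The nearest paralogs of 4 members were not called: Cox6a1 was at 0.18 (SE 0.12), Rab7 at 0.07 (SE 0.10), Baiap2 at 0.39 (SE 0.37) and Ctnna1 at 0.06 (SE 0.17). These paralogs were picked after their values were known. The medians of the 41 genes and of all genes were -0.00 and -0.01.

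Between DAM-gated and homeostatic-gated cells of the same set, 24 of 42 tested relatives were higher and 4 lower, beside 53.7% of all 10977 genes called (28.2% higher and 25.4% lower). Library totals shifted the median of all genes by -0.29 and gave 21 relatives higher and 12 lower, with 1822 genes higher and 5390 lower over the whole table in place of 3100 and 2793. The cytochrome c oxidase subunits moved as a body: 10 of 10 tested were higher, by 0.95 to 1.34 on the log2 scale, by 0.68 to 1.07 with library totals, and by 0.58 to 0.99 without Malat1-poor cells. Cox5b led at 1.34 (SE 0.07), then Cox6c at 1.28, Cox4i1 at 1.21 and Cox8a at 1.19. Among scavenger receptors, Cd36 was higher by 6.41 (SE 0.38), Msr1, a class A receptor, by 3.30 (SE 0.18) and Scarb1 by 0.70. Beside Fam20c and Ank, Spp1 was higher by 7.29 (SE 0.44) and Enpp1, the ectoenzyme that makes pyrophosphate from ATP, by 1.40 (SE 0.14). The Cas protein Nedd9 was higher by 2.38 (SE 0.20), the I-BAR founder Baiap2 by 1.33 (SE 0.20) and β-catenin (Ctnnb1) by 0.86. Of the endosomal relatives of Rab7b, Rab32 was higher by 0.97, Rab9 by 0.73 and Rab7 by 0.61.

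Other relatives fell or were called with small sizes. Ctnnal1 fell by 1.55 and the I-BAR gene Mtss1 fell by 1.26. Ctnna1 (0.32), Ccz1 (-0.25), Rap1b (-0.17) and Ptk2b (0.16) were called with the sizes given, and with library totals Ctnna1 lost its call and Ptk2b turned to -0.12. Ptk2b kept its call in 4 of 16 alternatives, Rap1b in 13 and Ccz1 in 14. Without thalamus set 3 or HPC set 2 Ccz1 (-0.16 and -0.23) was not called, nor was Rap1b without thalamus set 3 (-0.16) or set 4 (-0.16). The SoxD relatives of Sox5 and the relative of Etl4 had too few counts to test.

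Markers of other cell types were read in the same sums. Oligodendrocyte markers (8 genes, Mbp the highest) summed to between 0.798 and 2.13 UMIs per 10,000 in thalamic DAM-gated sets and between 0.987 and 1.25 in HPC ones. Neuron markers (7 genes) summed to 0.0558 to 0.137 and 0.0203 to 0.228, with Syt1, Meg3 and Gria2 at 0 in the HPC. Astrocyte markers (6 genes, Slc1a3 the highest) summed to 1.21 to 1.54 and 0.797 to 2.56, and endothelial markers (5 genes, Cldn5 and Ly6c1 at 0) to 0.286 to 0.645 and 0.205 to 0.563. The ranges of the regions overlapped for all 4 lists. In thalamic homeostatic-gated and DAM-gated cells the oligodendrocyte means were 1.10 and 1.39 and the neuron means 0.128 and 0.0820. The astrocyte means were 2.79 and 1.41 and the endothelial means 0.165 and 0.452. Whether the marker counts came from RNA of other cells, and their part in the levels of the 10 genes, was not tested.

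Genes with the most similar pattern were sought over 24 sums (8 sets in the DAM-gated, intermediate and homeostatic-gated states, 10766 genes compared), which share cells' state, set and library. Fam20c ran with the glycolytic genes Pkm (Pearson r = 0.99) and Tpi1 (0.98), and Colec12 with Gpi1 (0.98) and Fabp5 (0.97). Rab7b ran with Anxa2 (0.98) and Lilrb4a (0.98), and Bcar3 with Anxa2 (0.97) and Cd63 (0.97). Etl4 ran with Lpl (0.97) and Myo5a (0.97), Ank with Ccl6 (0.97) and March3 (0.95), and Cox6a2 with Cst7 (0.95) and Actr3b (0.95). Ctnna3, Baiap2l2 and Sox5 had the greatest regional ratios of means over all microglia-like cells. The closest were Gusb (0.95) and Tmem178 (0.95) for Ctnna3, Lgi2 (0.96) and Clta (0.93) for Baiap2l2, and Bag1 (0.90) and Bsg (0.90) for Sox5. Fabp5, Cd63, Lpl and Cst7 are genes of the DAM gate itself.

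Promoter windows around annotated start sites (RefSeq, GRCm38) were at hand for 6 of the 10 genes, in 11 windows. The E-box CACGTG, read on both strands, lay in 2 of them (Bcar3 and Etl4), beside 7.15% of all windows, TGANTCA lay in 0 of 11 beside 7.81%, and GGAAGT lay in 3 of 11 (Ctnna3 and Sox5) beside 23.8%.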

How the data were processed

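The deposited values were counts, raw UMIs per gene and cell, which the authors made with Cell Ranger (7.1.0 per the file headers; the study's methods name an earlier version) on GRCm38 and did not normalize. Multiplexing oligos were left out. Cells with 200 to 7500 genes and at most 2% mitochondrial UMIs were kept. Cells were classed by the class with the highest share of its markers present (at least 3 markers). Where the next class exceeded 0.6 of that share the cell was left out as mixed, and no doublet caller was run. Border and monocyte markers were read as separate lists of 7 and 5 genes with 4 needed, a rule set after seeing the data. DAM-gated cells were the top 15% of microglia-like cells by DAM minus homeostatic score with sets weighted equally, homeostatic-gated cells the bottom 50% and interferon-gated cells the top 3% of an interferon score. Of these, 469 cells (2.45% of those scored) lay within 0.1 of the DAM limit and 2371 (12.4%) within 0.1 of the homeostatic one.

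Counts were summed per set (at least 20 cells) and tested with edgeR 4.0.16 (quasi-likelihood, TMM, filterByExpr, Benjamini-Hochberg at 0.05) in R 4.3.3 over the whole table. Alternatives were RLE factors, DESeq2 1.42.0, no low-count filter, other gates and mitochondrial limits, a replicate block, leaving out each set and, chosen after seeing the data, library totals. The fits were tested on simulated data.

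The members and lists were chosen with earlier results of these data known. All 10 members are named. Of related genes, those called are named, up to 4 per family by size of the log2 fold change. For each member the 2 genes with the highest Pearson r of log2(CPM + 1) are named. Some genes of the lists are not reported here.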

Additional observations from a re-analysis of the deposited data

Results flagged for a closer look

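Of 40 groups of 4 sets (each of the 10 genes in DAM-gated and homeostatic-gated cells of either region), 5 held a set that lay far from the other 3, where chance gives about 1 in 20. Ctnna3 in DAM-gated cells of HPC set 3 was at 2.68 UMIs per 10,000, with the other HPC sets between 0 and 0.0361. Its 47 UMIs came from 1 cell. Rab7b in DAM-gated cells of thalamus set 4 was at 0.968, with the others between 0.857 and 0.873. Rab7b in homeostatic-gated cells of the same set was at 0.0214, with the others between 0.00945 and 0.0111. Ank in homeostatic-gated cells of thalamus set 4 was at 0.486, with the others between 0.444 and 0.450. Fam20c in homeostatic-gated cells of thalamus set 3 was at 0.0236, with the others between 0.0555 and 0.0620.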

How the results depend on the processing

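Between Malat1-poor and other cells Cox6a2, Baiap2l2, Etl4 and Colec12 kept their calls in 13 of 13 alternatives, Ank in 12 and Fam20c in 9. Rab7b was called with library totals and, at -0.60, with DAM as the top 8% of cells. Ctnna3, Sox5 and Bcar3 are again not counted. Over all genes 5245 to 7039 were called in these alternatives (72.0% in the main fit), and 5349 to 6300 without each set. Between regions in T- or NK-like cells, 16 genes were called, with DESeq2 35, with no filter on low counts 106 and without each set 5 to 15. In DAM-gated cells 165 genes were called, with no filter 593, with DAM as the top 8% of cells 41 (HPC set 3 then has too few cells), as the top 25% 771 and without each set 78 to 294. Library totals split these calls into 95 higher and 89 lower, against 112 and 53. The 1 related gene called became 4 with no filter, 2 with a mitochondrial limit of 5%, 3 with the top 25%, 2 without Malat1-poor cells and 1 to 2 without each set. Msr1, not called between regions, stayed so in 12 of 16 alternatives, with values from -1.19 to -0.20 over all of them. Among the rest it was called at -0.80 with no filter and at -1.04 without thalamus set 2. Against homeostatic-gated cells, 26 to 29 related genes and 5247 to 5934 genes in all were called without each set. With library totals Ptk2b turned to -0.12 and Vps41 to -0.050, neither of them called. The median part within states, 43.2%, was 32.0% with 20 score bins and 34.2% to 46.2% without each set, the lowest without HPC set 1. For these changes the cause was not tested. Set numbers are shared by the regions but nothing in the labels pairs them. Deviations of same-numbered sets correlated between -0.02 and 0.23 in T- or NK-like cells and between 0.01 and 0.13 in DAM-gated cells, where 2 of 4 and 3 of 4 sets correlated best with their own number. A replicate block raised the calls to 126 and 378, and the related genes called to 2. The test in macrophage- or monocyte-like cells and its alternatives were not run, since 1 HPC set alone held 20 such cells. Depth limits the least abundant genes most, Sox5 and Baiap2l2 having 6 and 3 UMIs in HPC DAM-gated cells.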
